A study of Mus musculus with 50 samples.

Results

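Mouse embryonic stem cells without Ythdf1 were followed through 8 h of actinomycin D, a drug that blocks transcription, so that the RNA still present at a given time reflects decay of molecules made before. The libraries described here were the 10 of 50 in the series that carry the Ythdf1-/- genotype (called Ythdf1_KO): 4 libraries at 8 h, set against 4 at 0 h, with 2 at 4 h as the middle point. They were chosen by label alone. There were replicates A and B at every time. Those of 0 h and 8 h were sequenced as 2 duplicates each, averaged before any test. All cells were of the KH2 line, on a C57BL/6 x 129/Sv background, kept in serum and LIF and plated on gelatin, and all treated cells received 5 µM of the drug. The other genotypes, treated in the same way and with the same numbers of libraries, were Ythdf2-/-, Ythdf3-/-, a knockout of all 3 genes (Triple_KO) and WT. The labels give neither the deleted part of each gene nor the number of clones, and nothing in the labels says whether replicates were separate cultures, so that p-values measure only the spread between these samples, which may be technical.

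Ythdf1 is a cytoplasmic reader protein: its YTH domain binds N6-methyladenosine (m6A), a methyl mark that writer enzymes place on mRNA, often near the stop codon. Ythdf2, its close relative, is known for bringing marked transcripts to the deadenylation machinery, and whether Ythdf1 shares that role is the question behind setting the decay of Ythdf1_KO cells beside that of WT cells. In stem cells many transcripts of pluripotency regulators carry the mark and turn over fast.

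RNA was read near the 3′ end of poly(A) transcripts, and levels are given in FPM, the fragments of a gene scaled to a fixed library total, with no correction for length. A change is a log2 difference of FPM + 1, with its standard error from limma, and p-values were adjusted (Benjamini-Hochberg) over the 9042 genes tested. Depth fell with time: the Ythdf1_KO libraries held 796921 to 986586 reads at 8 h and 1369330 to 2341410 at 0 h, and WT libraries 875830 to 1185079 at 8 h and 1183310 to 1698721 at 0 h. The share of a library that fell in the listed genes also moved, to 33.4 ± 1.06% in Ythdf1_KO at 8 h, against 43.9 ± 0.364% at 0 h (SD, n = 4 libraries), and to 33.2 ± 0.266% in WT at 8 h, against 43.3 ± 0.655% at 0 h. The drop in Ythdf1_KO had p = 0.0286 in a two-sided exact permutation test of 4 against 4 libraries, the smallest such a test can give. Adjusted over 4 such comparisons it was 0.0571, which does not pass, and duplicates are not independent. At 8 h the shares of Ythdf1_KO and WT differed by 0.269 percentage points (exact permutation p = 0.886).

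The labelled cell type was checked against its markers. Pou5f1, the core pluripotency factor, held 842, 931, 828 and 812 FPM in the 8 h libraries of Ythdf1_KO (replicate A's duplicates, then B's, the order used throughout), against 770, 754, 710 and 870 FPM at 0 h. Dppa5a, an RNA-binding marker of the naive state, held 859 to 901 FPM at 8 h and 776 to 805 FPM at 0 h, while Nanog held at most 4.05 FPM in any Ythdf1_KO library. The 10 defining stem cell markers summed to 2072 to 2178 FPM at 8 h and 2537 to 2829 FPM at 0 h in Ythdf1_KO. Of the 9 that were tested 6 fell over 8 h, Sox2, Esrrb and Utf1 among them, and 2 rose. The 5 trophectoderm markers summed to 2.09 to 3.38 FPM in Ythdf1_KO at 8 h and 8.28 to 15.3 FPM at 0 h, with Elf5 at 0 in every Ythdf1_KO library, and the 5 endoderm markers summed to 0 to 1.25 FPM at 8 h and 2.78 to 7.00 FPM at 0 h. Markers of fibroblasts were also counted in these cells, which were plated on gelatin, and moved with time. Their 8 defining genes summed to 424 to 501 FPM at 8 h and 200 to 234 FPM at 0 h in Ythdf1_KO, and to 304 to 331 FPM at 8 h and 158 to 176 FPM at 0 h in WT. None of the 8 was at 0 in all Ythdf1_KO libraries, although Col3a1 never exceeded 3.13 FPM and Pdgfrb 3.84 FPM. Acta2 (86.9 to 95.7 FPM) and Tagln (58.9 to 77.4 FPM) made up most of the 0 h sum in Ythdf1_KO. Of a wider list of 33 markers, 26 averaged 1 FPM or more there. In that list Lum was at 0 in every Ythdf1_KO library and Dcn never exceeded 0.730 FPM. Which cells these transcripts came from was not tested. In bulk RNA, fewer cells of a type and less RNA per cell cannot be told apart.

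Decay is often steered by short motifs in the 3′ untranslated region, and the sites shown here are of genes that the results below refer back to. Pumilio proteins bind TGTANATA (written as DNA) and recruit deadenylases, and AU-rich nonamers TTATTTATT are bound by proteins of the tristetraprolin family. Each site is given 5′ to 3′ on the transcript with 10 bases on either side in lower case and the motif in capitals, from GENCODE transcripts on build GRCm38, each in the annotated 3′ untranslated region of its gene. Of 8754 tested genes with an annotated 3′ untranslated region, 22.6% held the Pumilio motif and 6.17% the nonamer on the transcribed strand. The sets below cover genes with the largest falls (Chd2, Rabgef1, Mycn), a pluripotency factor and a cyclin that fell (Sox2, Ccnb1), the gene that rose most (Tmem38b), and the gene with the smallest adjusted p for a difference in decay from WT (Slc2a1). Ccnb1 also holds the Pumilio motif, at sites not printed here.
Chd2 Pumilio motif, chr7:73426728-73426755, minus strand: tgatttctgaTGTAAATAatgttgttta
Rabgef1 Pumilio motif, chr5:130213643-130213670, plus strand: tatgtaaaatTGTAAATAtgtaaaaaaa
Mycn Pumilio motif, chr12:12936594-12936621, minus strand: ggaacacttgTGTAAATAccattgatac
Mycn Pumilio motif, chr12:12936155-12936182, minus strand: ttcttcaaaaTGTATATAtttagtgctg
Sox2 Pumilio motif, chr3:34652340-34652367, plus strand: cgagaatccaTGTATATAtttgaactaa
Slc2a1 Pumilio motif, chr4:119137256-119137283, plus strand: caaacccactTGTAAATAcaccaacaaa
Tmem38b Pumilio motif, chr4:53860495-53860522, plus strand: gtataattccTGTATATAgaagacgatt
Tmem38b AU-rich nonamer, chr4:53860597-53860625, plus strand: gtgtatacagTTATTTATTttatatatct
Ccnb1 AU-rich nonamer, chr13:100779236-100779264, minus strand: ttttatgtaaTTATTTATTtgttcttaat

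After 8 h, most of the transcriptome of Ythdf1_KO cells stood below its 0 h level relative to the library total. Of the 9042 genes, 4933 fell (54.6%) and 125 rose (1.38%), with a median change of -0.77, in all 55.9% of genes. In WT 4993 fell (55.2%) and 156 rose (1.73%), in all 56.9%, with a median of -0.81. Transcripts of regulators were among the largest falls, and Malat1, Rpph1 and collagen transcripts among the largest rises. These directions are relative to the total. With libraries scaled to the median gene instead, 2168 fell and 1261 rose and the median was -0.21. With TMM scaling 1992 fell and 1404 rose with a median of -0.16. For median scaling only tested genes with reads in every library were used, so the median over all genes tested need not be 0. A gene that changed by less than about the median can therefore carry either sign. Falls and rises below are relative to the total. The counts of a list are given with median scaling as well where they turn or move much. They are to be read against the 54.6% of all genes that fell and the 1.38% that rose. With median scaling they are to be read against 2168 falling and 1261 rising of the 9042. Most named genes were chosen by their change in these same libraries, so a lack of overlap between times adds no separate support. The share of all genes without overlap is not given here.

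The transcripts of the readers themselves fell. Ythdf2 held 8.35, 13.8, 8.11 and 11.3 FPM in Ythdf1_KO at 8 h, against 66.6, 77.8, 66.5 and 58.6 FPM at 0 h, a change of -2.61 ± 0.23 (limma adjusted p = 2.12e-15). Ythdf3 changed by -1.55 ± 0.29 (adjusted p = 1.2e-05) and Ythdf1 by -1.76 ± 0.23 (adjusted p = 3.1e-09). For all 3 genes every 8 h library was below every 0 h library. How many of all genes separate in this way was not counted, and 54.6% of all genes fell. The separation is therefore not read as particular to the readers. Reads of the deleted gene were still counted: at 0 h Ythdf1 held 51.1 to 64.9 FPM in Ythdf1_KO and 50.7 to 67.7 FPM in WT, ranges that overlap almost wholly (change of -0.00 ± 0.23, adjusted p = 1.00). A 3′ end read outside the deleted part says nothing about the protein, so the genotype could not be checked from these counts.

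The 10 largest falls were Chd2, Trib3, Cbll1, Rabgef1, Ctdp1, Arhgap12, Mycn, Smad7, Riox1 and Armc1, which changed by -3.64 to -3.43. Chd2, a chromatin remodeller (chr7:73426652-73541746), had 0, 0, 3.04 and 0 FPM at 8 h, against 17.1, 11.1, 20.4 and 19.7 FPM at 0 h. Those are 3 reads in all at 8 h and 115 at 0 h, or 4.83% left per read sequenced with a 95% exact interval of 0.982% to 14.5% for counting error only. Cbll1, an accessory subunit of the m6A writer complex, was likewise at 2 reads at 8 h and 101 at 0 h, or 3.67% left (0.438% to 13.6%). Both genes were thus at or close to the limit of what these libraries can detect after 8 h.

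Trib3, a pseudokinase induced in amino acid stress, averaged 2.85 ± 1.68 FPM at 8 h and 42.0 ± 8.61 FPM at 0 h (SD, n = 4 libraries), with a lowest 0 h library of 30.7 FPM and a highest 8 h library of 5.02 FPM (-3.57 ± 0.37, adjusted p = 1.73e-12). Mycn, the MYC-family factor that drives growth of stem cells, had 3.13, 1.25, 5.07 and 3.38 FPM at 8 h, against 47.0, 53.5, 33.6 and 38.8 FPM at 0 h (-3.46 ± 0.38, adjusted p = 1.2e-11). Groups did not overlap in either gene. Smad7, an inhibitor of TGF-beta and BMP signalling, averaged 1.60 ± 1.32 FPM at 8 h and 24.4 ± 2.83 FPM at 0 h. Rabgef1, an exchange factor of the endosomal GTPase Rab5, kept 2 reads at 8 h of 105 at 0 h (3.53% left, 0.422% to 13.1%). Ctdp1, a phosphatase of the RNA polymerase II tail, and Riox1, a nucleolar oxygenase, were as low: Ctdp1 averaged 1.04 ± 1.43 FPM at 8 h and 18.4 ± 4.61 FPM at 0 h, and Riox1 1.56 ± 1.74 FPM at 8 h and 22.8 ± 5.20 FPM at 0 h. All 10 passed under every alternative tried that gave an adjusted p.

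Of these 10 genes, 6 hold the Pumilio motif, against 22.6% of all genes with an annotated 3′ untranslated region; none holds the nonamer. Among the 10 largest rises, 8 have such a region, of which 1, Tmem38b, holds the Pumilio motif as printed above, and 2 hold the nonamer.

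Rises were few. Tmem38b, a potassium channel of the endoplasmic reticulum (chr4:53825988-53862019), had 5.13, 7.64, 4.38 and 1.91 FPM at 0 h, 9.30 and 14.9 FPM at 4 h, and 47.0, 67.8, 46.6 and 42.8 FPM at 8 h (3.25 ± 0.36 for 8 h against 0 h, adjusted p = 1.5e-11). Malat1, a long noncoding RNA kept in the nucleus, had 19.6, 18.8, 32.1 and 37.6 FPM at 0 h, 113 and 112 FPM at 4 h, and 229, 197, 218 and 179 FPM at 8 h (2.94 ± 0.15, adjusted p = 8.0e-27). In both genes the times did not overlap and the level went up at each step. Both moved as far in WT, by 3.48 ± 0.36 and 2.98 ± 0.15. The RNase P RNA Rpph1, a polymerase III product, had 58.4, 60.2, 56.8 and 62.0 FPM at 8 h, against 24.3, 26.4, 22.6 and 14.0 FPM at 0 h (1.44 ± 0.25, adjusted p = 2.6e-06).

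**Figure D1:**
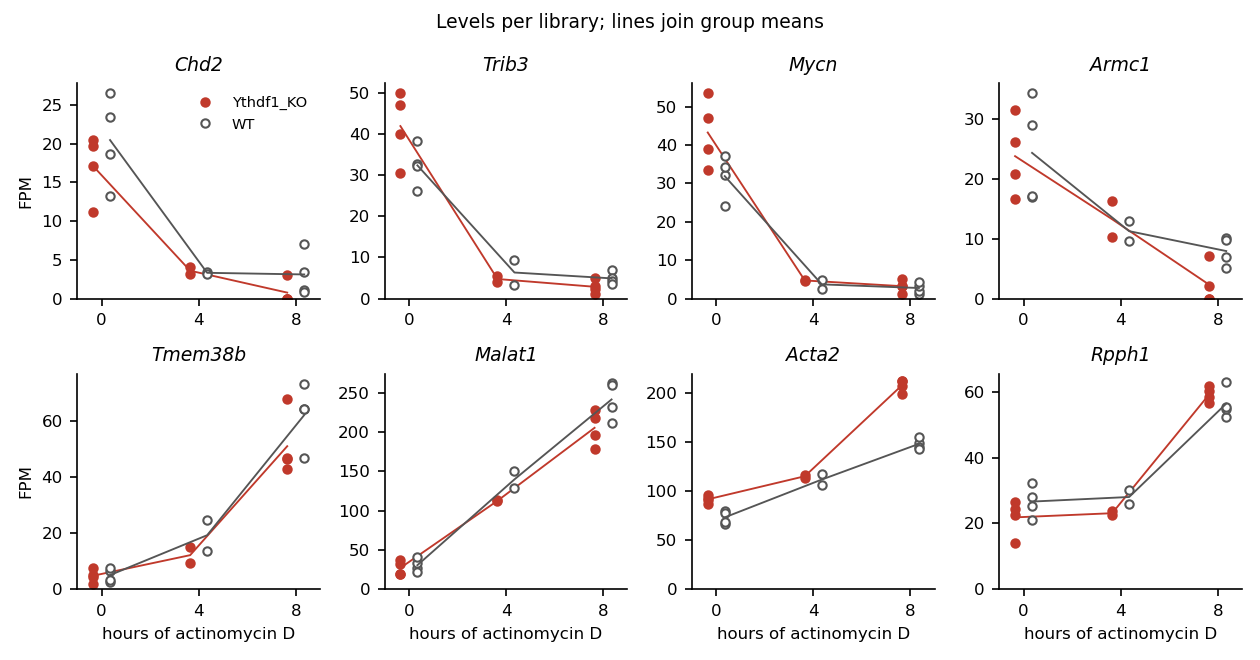
Level in FPM (y axis) of 4 genes that fell (top row) and 4 that rose (bottom row) over 0, 4 and 8 h of actinomycin D (x axis), with a point per library for Ythdf1_KO (filled red, left) and WT (open grey, right) and lines through group means. Chd2, Trib3 and Mycn were low by 4 h, Armc1 still held 10.2 to 16.3 FPM in Ythdf1_KO at 4 h, and Malat1 reached 179 to 229 FPM in Ythdf1_KO at 8 h.

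The others of the 10 largest rises were Col1a2 and Col8a1, collagen chains, Cnn1, a smooth-muscle calponin, Efemp2, a protein of elastic fibres, S100a4, a calcium-binding protein of motile fibroblasts, Inhba, the activin A subunit, and Fxyd5, a sodium pump regulator. Cnn1 had 32.3, 45.2, 24.3 and 21.4 FPM at 8 h, against 13.7, 15.3, 8.76 and 9.55 FPM at 0 h (1.29 ± 0.31, adjusted p = 3.8e-04). S100a4 had 20.9, 26.4, 23.3 and 22.5 FPM at 8 h, against 13.2, 6.25, 4.38 and 10.2 FPM at 0 h (1.45 ± 0.32, adjusted p = 1.4e-04). Neither overlapped between times. Col8a1 barely passed (1.21 ± 0.53, adjusted p = 0.044) and lost its call without either replicate, with a pseudocount of 0.25 and with no filter on low values (adjusted p up to 0.323). Fxyd5 lost it without replicate A and with thinned libraries (adjusted p up to 0.176), Inhba without replicate B (adjusted p = 0.0504) and Efemp2 without replicate A (adjusted p = 0.0920).

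Read as a whole list, 25 of 33 fibroblast markers passed the filter on low values, of which 17 rose and 1 fell, with a median of 0.75, set beside 1.38% rising and a median of -0.77 over all genes. In WT 16 rose and the median was 0.61. Acta2, smooth-muscle actin, had 213, 200, 208 and 213 FPM at 8 h, against 91.4, 86.9, 95.7 and 93.0 FPM at 0 h (1.17 ± 0.11, adjusted p = 1.14e-14), and Tagln, its calponin-like partner, averaged 147 ± 16.7 FPM at 8 h and 67.1 ± 8.62 FPM at 0 h. S100a6 also rose (0.86 ± 0.09), whereas Fn1, fibronectin, fell by 0.45 on the log2 scale, and turned to 0.24 with TMM scaling. Summed over the whole list the markers held 2060 to 2307 FPM at 8 h and 1440 to 1556 FPM at 0 h. Their part in the rises above was not tested. The count of 17 stayed within 1.5 times its size when the shallowest 8 h library was left out, when libraries were thinned to equal depth, and without either replicate.

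Most pluripotency regulators fell, by very different amounts. Of 27 genes of the naive network tested, 21 fell and 1 rose (median -1.26), and of 18 core genes 14 fell and 2 rose (median -1.83), where over all genes 54.6% fell, 1.38% rose and the median was -0.77. With median scaling 14 of the naive genes fell and 4 rose, and 13 of the core genes fell and 3 rose. Klf2, a naive transcription factor downstream of ERK signalling, averaged 34.6 ± 11.2 FPM at 8 h and 303 ± 19.9 FPM at 0 h (-3.15 ± 0.16, adjusted p = 6.11e-26). Klf4, its LIF-responsive relative, averaged 14.5 ± 3.54 FPM at 8 h and 133 ± 8.56 FPM at 0 h (-3.14 ± 0.20, adjusted p = 1.22e-21). Sox2, partner of Pou5f1, had 11.5, 10.0, 13.2 and 25.9 FPM at 8 h, against 142, 143, 145 and 135 FPM at 0 h (-3.23 ± 0.22, adjusted p = 8.73e-20). Esrrb, an orphan nuclear receptor of the naive state, had 51.1, 30.1, 40.5 and 63.1 FPM at 8 h, against 244, 221, 204 and 226 FPM at 0 h (-2.30 ± 0.11, adjusted p = 9.61e-27).

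No library overlapped between times in these 4 genes. They were named for a small adjusted p in these same libraries, so this adds no separate support. Utf1, a chromatin factor of undifferentiated cells, changed by -2.43 ± 0.19, and Sall4, a zinc-finger factor, by -1.75 ± 0.13. Dppa5a rose by 0.16 ± 0.05 (adjusted p = 0.00298).

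Lists of signalling genes had medians below that of all genes. In the list of immediate-early and short-lived regulators 46 of 62 were tested, 44 fell and none rose, with a median of -2.05 against -0.77 over all genes and 54.6% falling. Sgk1, a serum-induced kinase, changed by -3.31 ± 0.26, Pim3, a survival kinase, by -2.84 ± 0.24, and Mcl1, a short-lived anti-apoptotic protein of the BCL2 family, by -2.38 ± 0.20 (adjusted p at most 7.72e-16 over the 3). In the LIF and JAK-STAT3 list 10 of 13 fell (median -1.81), in the FGF and ERK feedback list 8 of 9 (median -2.19), in the BMP, Nodal and Id list 17 of 20 (median -1.87) and in the Wnt list 13 of 14 (median -1.81), and none rose in any of the 4. With median scaling 37 of the 46 immediate-early genes fell, the 4 other lists had 8, 6, 13 and 9 falling in the same order, and 1 Wnt gene rose. Spry2, a feedback inhibitor of receptor tyrosine kinases, averaged 5.97 ± 3.70 FPM at 8 h and 52.9 ± 6.02 FPM at 0 h. Nodal, a TGF-beta family ligand, averaged 10.5 ± 4.03 FPM at 8 h and 89.9 ± 6.12 FPM at 0 h. Gsk3b, the kinase that marks beta-catenin for destruction, changed by -3.15 ± 0.47.

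Tfcp2l1, a LIF target, fell less (-1.19 ± 0.09), and so did Tdgf1, the Nodal coreceptor (-0.95 ± 0.08), so members of the same pathway differed widely in how much of their 0 h level was left.

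Most genes of the m6A machinery fell. All 19 genes listed were tested, 16 fell and none rose, with a median of -1.64 (-1.44 in WT), where 54.6% of all genes fell and their median was -0.77. With median scaling 13 fell and 1 rose. Wtap, the adaptor of the writer complex, averaged 8.48 ± 1.69 FPM at 8 h and 39.9 ± 8.52 FPM at 0 h (-2.11 ± 0.27, adjusted p = 1.01e-09). The catalytic subunit Mettl3 changed by -2.08 and the eraser Alkbh5 by -2.36, both falls. The eraser Fto (-0.18), the partner subunit Mettl14 (-0.93) and the reader Igf2bp3 (-0.20) did not pass. Igf2bp1, an mRNA-stabilising reader, fell by 1.17 ± 0.12 (adjusted p = 1.73e-12).

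Among housekeeping groups, cell-cycle transcripts were spread widely, and their counts are to be read against the 54.6% of all genes that fell. Of 36 mitosis genes 33 fell (median -1.09): Ccnb1, cyclin B1, held 16.2 to 23.7 FPM at 8 h and 86.2 to 113 FPM at 0 h, and Top2a, which untangles sister chromatids, changed by -1.59 ± 0.11. Of 37 genes of G1/S and replication 29 fell and 1 rose (median -0.74). With median scaling 15 mitosis genes fell and none rose, and 12 genes of G1/S and replication fell and 6 rose. Cdt1, a licensing factor, changed by -3.16 ± 0.22 and Ccnd2, cyclin D2, by 1.18 ± 0.45 (adjusted p = 0.0214). Of 27 p53 targets 23 fell (median -1.39), among them Phlda3, an AKT inhibitor (-1.97 ± 0.14), and Mdm2, the p53 ubiquitin ligase (-2.04 ± 0.20); 15 fell and 2 rose with median scaling. Of 35 histone lysine methyltransferases and demethylases 28 fell (median -1.33), among them Setd5, Nsd1 and Kdm5b (-2.16 to -1.79), and with median scaling 17 fell and 1 rose.

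Atf4, the transcription factor of the integrated stress response, averaged 84.3 ± 8.10 FPM at 8 h and 495 ± 12.0 FPM at 0 h (-2.54 ± 0.11, adjusted p = 7.58e-31), and its target Slc38a2, an amino acid transporter, 9.95 ± 1.49 FPM at 8 h and 106 ± 11.8 FPM at 0 h. Yet in the list they belong to 15 of 30 fell, where 54.6% of all genes did. That share also stands beside the counts that follow. The list had a median of only -0.28, which turned to 0.33 with median scaling. The median also turned above 0 under that scaling for heat shock chaperones (18 of 22 fell and 1 rose, median -0.44), the proteasome (26 of 40 fell, -0.33), translation factors (38 of 48 fell and 1 rose, -0.53) and SR proteins and hnRNPs (24 of 32 fell, -0.44). Within them Eif1a, a scanning factor (-2.17 ± 0.19), Psmd7, a lid subunit of the proteasome (-1.56 ± 0.12), and Srsf3, a splicing factor (-1.08 ± 0.09), fell, and did so under each scaling.

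Ribosomal protein and respiratory chain transcripts changed little relative to the total. Over all genes 54.6% fell and 1.38% rose, the shares to set beside the counts that follow. Of 82 cytosolic ribosomal protein genes 14 fell and 9 rose with a median of -0.03, which with median scaling became 79 rising, none falling and a median of 0.60. Rplp1, a protein of the ribosomal stalk, averaged 2196 ± 173 FPM at 8 h and 1769 ± 60.1 FPM at 0 h (0.31 ± 0.04, adjusted p = 1.19e-10), and Rplp0, its anchor, changed by 0.26 ± 0.04, whereas Rpl36al changed by -0.56 ± 0.07 and turned to 0.07 with median scaling. Of 74 respiratory chain genes 11 fell and 6 rose with a median of -0.06, which became 65 rising, none falling and 0.57 with that scaling. Mitochondrial ribosomal proteins had a lower median than both: 49 of 70 fell and none rose (median -0.83), which with median scaling became 22 falling, 9 rising and a median of -0.22, with Mrps18b at -1.39 ± 0.14 and Mrps34 at -1.55 ± 0.16. Of 62 genes of the mRNA decay machinery 45 fell (median -0.88), among them the helicase Ddx6 (-1.47 ± 0.14) and the deadenylase subunit Cnot2 (-2.46 ± 0.27), and with median scaling 21 fell and 4 rose.

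Smaller lists held members on both sides. Of 17 noncoding RNAs 11 fell and 3 rose (5 and 5 with median scaling): Snhg5, a host of small nucleolar RNAs, changed by -2.64 ± 0.26, and the RNase MRP RNA Rmrp rose like Rpph1 and Malat1, with 3.88 FPM at 8 h and 0.289 FPM at 0 h on average (adjusted p = 0.00387). Of 18 imprinted genes 5 fell and 3 rose (median -0.35), which turned with median scaling to none falling and 5 rising (median 0.23), with Igf2, a growth factor, at 45.3 ± 10.8 FPM at 8 h and 22.0 ± 3.86 FPM at 0 h (1.00 ± 0.27, adjusted p = 0.00153). Of 9 endoderm markers tested 3 rose and 2 fell, of 10 trophectoderm markers 2 rose and 5 fell (median -0.42), and of the 9 defining stem cell markers 2 rose and 6 fell (median -2.30). With median scaling 4 endoderm markers rose and none fell, and 3 trophectoderm markers rose and 2 fell, their median turning to 0.07. The keratins Krt8 and Krt18, listed with both endoderm and trophectoderm, rose by 0.66 ± 0.12 and 0.62 ± 0.16 in Ythdf1_KO. In WT they changed by 0.06 and -0.07, and the difference between genotypes did not pass (adjusted p = 0.39 and 0.77). Hk2, hexokinase 2, and the glucose transporter Slc2a3 were among the falls of glycolysis (7 of 26 fell and 3 rose, median -0.16), a list that turned with median scaling to 1 falling and 10 rising (median 0.44), and Slc2a3 (-0.72 ± 0.06) turned to 0.01 in edgeR. Of 25 sterol synthesis genes 14 fell (median -0.63), of 12 genes of the Bcl2 family 8 (median -0.98) and of 17 of polycomb and DNA methylation 11 (median -0.85), and none rose; the share over all genes was 54.6%. With median scaling 4 sterol synthesis genes fell, 5 of the Bcl2 family and 7 of polycomb and DNA methylation, and 2 rose in each list. Of all 9042 genes, 2168 fell and 1261 rose under that scaling. The list of the 2-cell-like state had only 3 genes tested, of which 2 fell.

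**Figure D2:**
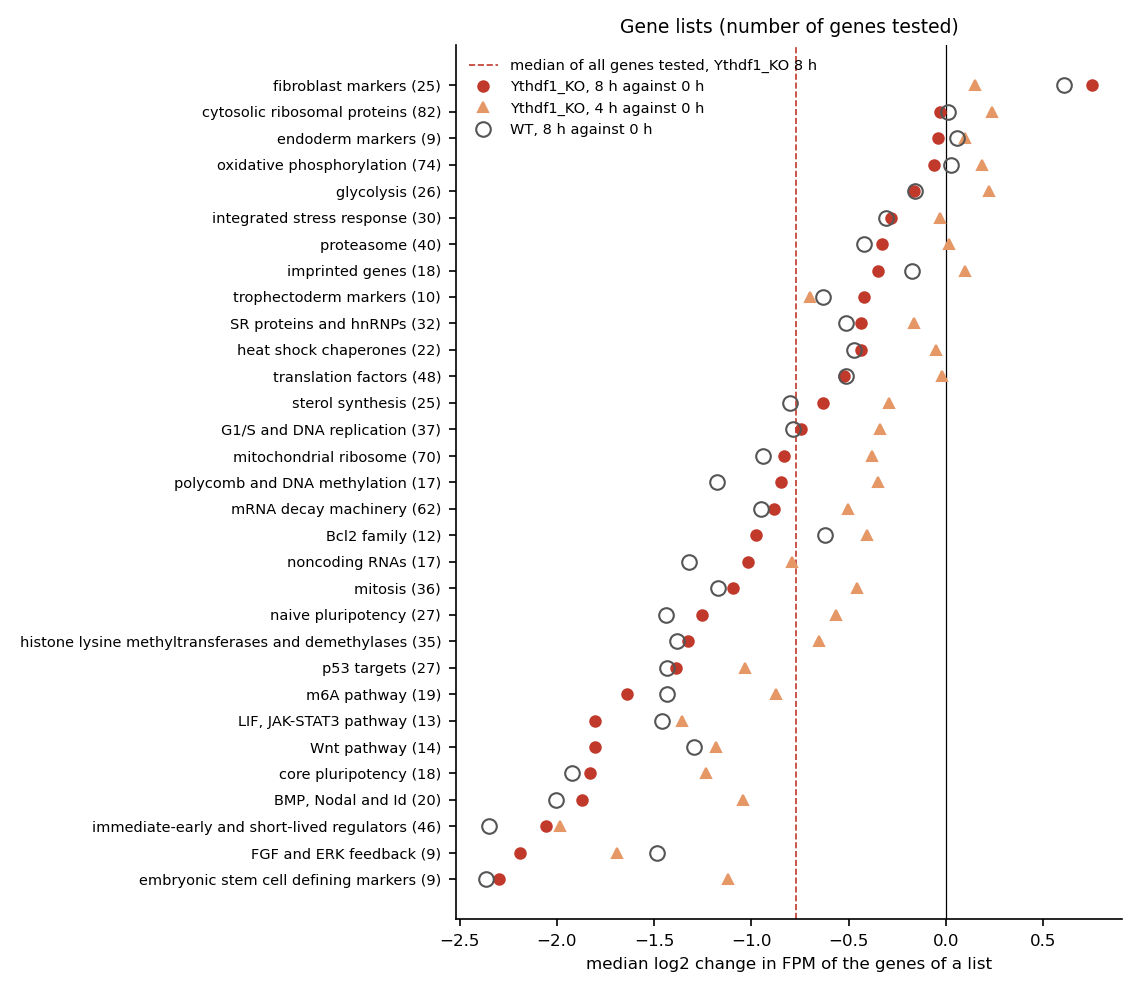
Median log2 change in FPM (x axis) of the tested genes of each list (y axis, number tested in brackets), for Ythdf1_KO at 8 h (red points) and 4 h (orange triangles) and WT at 8 h (open circles), each against its own 0 h. The dashed line is the median of all genes in Ythdf1_KO at 8 h, -0.77; fibroblast markers lie at 0.75 at the top and the defining stem cell markers at -2.30 at the bottom.

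The 4 h libraries show when the losses took place. At 4 h 2248 genes were below 0 h (24.9%) and 232 above (2.57%), with a median of -0.36, in all 27.4%. Between 4 h and 8 h 1901 fell (21.0%) and 56 rose (0.619%), in all 21.6%, again with a median of -0.36. With median scaling 1285 fell and 846 rose at 4 h, and between 4 h and 8 h 201 fell and 261 rose. Of the 4933 genes that had fallen by 8 h, 2130 had already passed at 4 h, and the median gene of them had made 53.4% of its 8 h log2 change by then. Immediate-early genes were ahead of this, with 40 of 46 fallen at 4 h and a median of -1.98 there, against -2.05 at 8 h. Klf4 stood at 15.5 ± 2.15 FPM at 4 h (n = 2) and 14.5 FPM at 8 h, so its log2 change at 4 h (-3.03) was close to that at 8 h.

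The falls that were largest at 4 h were Zfp459, a zinc-finger protein, Oser1, an oxidative stress-responsive protein, Mir295, a stem cell microRNA hairpin, Mad2l1bp, which helps silence the spindle checkpoint, and Trmt10c, a subunit of mitochondrial RNase P. Mir295 had 0 reads in both 4 h libraries and 72 in the 4 libraries of 0 h, at least 9.87-fold lower when 3 reads over the group are taken as the limit, and 1.04, 1.25, 1.01 and 3.38 FPM at 8 h. Zfp459 had 1 read at 4 h and 113 at 0 h (2.15% left, 0.0540% to 12.2%) but 4.17, 1.25, 3.04 and 3.38 FPM at 8 h. Trmt10c had likewise 1 read at 4 h and 95 at 0 h (2.56% left, 0.0641% to 14.6%), and Oser1 and Mad2l1bp had 2 at 4 h and 117 and 115 at 0 h.

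Later falls were of other genes. Armc1, a protein of the outer mitochondrial membrane, had 16.7, 20.8, 31.4 and 26.1 FPM at 0 h, 16.3 and 10.2 FPM at 4 h, and 2.09, 0, 7.10 and 0 FPM at 8 h. Xpo6, the nuclear exporter of actin, had 29.5, 29.9, 25.6 and 38.8 FPM at 0 h, 24.8 and 27.2 FPM at 4 h, and 5.22, 3.76, 5.07 and 2.25 FPM at 8 h. The 4 h libraries of Xpo6 were thus within or just below the range of 0 h and far above that of 8 h. Tsacc, Ptpn14, a tyrosine phosphatase, and Nipbl, the cohesin loader, completed the 5 largest falls between 4 h and 8 h, and in Nipbl the level was 8.83 to 11.6 FPM at 4 h and 1.04 to 3.76 FPM at 8 h. Without replicate A, Tsacc and Ptpn14 lost that call (adjusted p = 0.0831 and 0.0765).

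Ribosomal protein transcripts rose at first: 57 of 82 were above 0 h at 4 h, where 2.57% of all genes were. Their median was 0.24 there, and 9 were above 0 h at 8 h. Largest among all rises at 4 h were Malat1, Tmem38b, Col1a2, Dpysl2, a cytoskeletal regulator of neurites, and Vill, a villin-like actin-binding protein. Dpysl2 (1.20 at 4 h, adjusted p = 0.026) and Vill (0.94, adjusted p = 0.031) were not above 0 h in the test at 8 h (adjusted p = 0.50 and 0.15). Between 4 h and 8 h the largest rises were Tmem38b, Col8a1, Rpph1, Prss23, a secreted protease, and Cnn1. Prss23 had 14.6, 13.8, 12.2 and 13.5 FPM at 8 h and 6.20 and 4.08 FPM at 4 h, without overlap.

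Set against WT, few genes differed in decay by the test. The decay difference, the change over 8 h in Ythdf1_KO minus that in WT, had a median of 0.02. It passed for 4 genes (0.0442% of those tested), all with more left in Ythdf1_KO, and for none in the other direction. This balance depends on the scaling and the tool. With median or with TMM scaling 4 genes had more and 6 less left in Ythdf1_KO. In edgeR 4 had more and 11 less, and in DESeq2 3 more and 18 less. DESeq2 gave no adjusted p for 8589 of the 9042 genes here, so its counts cover far fewer genes. At an unadjusted p under 0.05 there were 467 genes, or 5.16%. At 4 h no gene passed in limma, edgeR or DESeq2, with 489 genes at an unadjusted p under 0.05. The precision was limited. The median standard error of a decay difference was 0.48, and the unadjusted 95% interval lay within 1 log2 unit of 0 for 35% of genes. For the rest that interval did not exclude a difference of 2-fold or more.

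Of the 4, the one that differed most was Slc2a1, the glucose transporter GLUT1 (chr4:119108745-119137330, protein coding). In Ythdf1_KO it had 207, 213, 184 and 218 FPM at 0 h, 140 and 114 FPM at 4 h, and 102, 134, 127 and 108 FPM at 8 h. In WT it had 208, 193, 215 and 182 FPM at 0 h, 125 and 121 FPM at 4 h, and 53.7, 69.2, 71.7 and 58.1 FPM at 8 h. The genotypes thus overlapped at 0 h and at 4 h and parted by 8 h, where every Ythdf1_KO library was above every WT library. The change over 8 h was -0.80 ± 0.10 in Ythdf1_KO and -1.65 ± 0.10 in WT, a difference of 0.85 ± 0.14 (limma adjusted p = 5.92e-04). At 4 h the difference was -0.00 ± 0.14 (adjusted p = 1.00).

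Hspa8, the constitutive HSP70 chaperone (chr9:40801276-40805202), had 467, 415, 463 and 452 FPM in Ythdf1_KO at 8 h and 321, 327, 291 and 331 FPM in WT at 8 h. At 0 h it averaged 1164 ± 34.4 FPM in Ythdf1_KO and 1074 ± 64.7 FPM in WT. The decay difference was 0.38 ± 0.08 (adjusted p = 0.0135). Ubb, a polyubiquitin gene (chr11:62551171-62553213), had 140, 152, 127 and 154 FPM in Ythdf1_KO at 8 h and 126, 90.3, 93.7 and 105 FPM in WT at 8 h, with a difference of 0.56 ± 0.12 (adjusted p = 0.0164). Its transcribed pseudogene Ubb-ps (chr14:46084027-46084957), named here because it completes the 4, moved in parallel (0.45 ± 0.09, adjusted p = 0.0147). Ubb and Ubb-ps are near copies, and since the treatment of reads with several matches was not given, they may hold the same signal and were not counted as separate evidence.

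In Hspa8 and Ubb-ps no Ythdf1_KO library at 8 h overlapped a WT library. In Ubb the lowest Ythdf1_KO library was just above the highest WT library. The 4 genes were chosen by their difference in these same libraries, and duplicates are not independent. Such separation at 8 h, that of Slc2a1 included, therefore adds no separate support. None of the 4 genes differed between genotypes at 0 h in limma (Slc2a1 0.04 ± 0.10, Hspa8 0.12 ± 0.05, Ubb -0.09 ± 0.08). The calls rest on few samples. Slc2a1 lost its call without Ythdf1_KO replicate B (adjusted p = 0.0620), without WT replicate A (adjusted p = 0.0801) and with libraries thinned to equal depth (adjusted p = 0.307), at estimates of 0.81, 0.80 and 0.67. DESeq2 gave Slc2a1 no adjusted p. Hspa8 lost its call without Ythdf1_KO replicate A or B or WT replicate B (adjusted p = 0.141, 0.388 and 0.488), and Ubb without any one replicate of either genotype (adjusted p = 0.0817 to 0.455) and with thinned libraries (0.0974). Ubb-ps lost it without Ythdf1_KO replicate B or either WT replicate (adjusted p up to 0.555), without the shallowest library (0.0558) and with thinned libraries (0.160). With no filter on low values (adjusted p = 0.135) and with the groups compared only (0.0633 to 0.0651) Hspa8, Ubb and Ubb-ps all lost their calls.

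**Figure D3:**
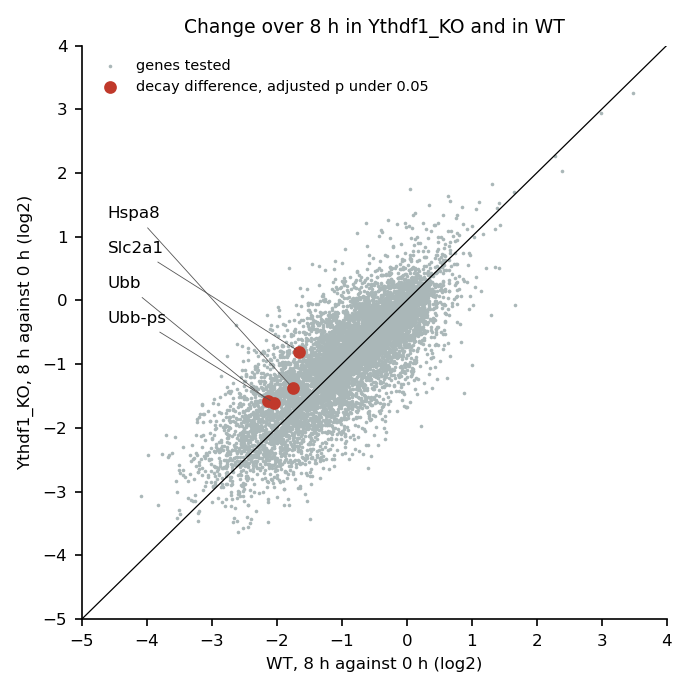
Log2 change over 8 h in Ythdf1_KO (y axis) against that in WT (x axis) for the 9042 genes tested (grey), with the line of equal change and the 4 genes whose decay difference passed in red. The cloud follows the line, and Slc2a1, Hspa8, Ubb and Ubb-ps lie above it, with -0.80 in Ythdf1_KO and -1.65 in WT for Slc2a1.

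The lists were set beside WT in the same way. The median decay difference was -0.27 for the m6A machinery, 0.10 for naive and -0.10 for core pluripotency genes, 0.12 for immediate-early genes and -0.06 for ribosomal proteins, set beside 0.02 over all genes, and no member of these lists passed in limma on FPM. Under other settings some members passed with less left in Ythdf1_KO. Among ribosomal proteins these were Rps20, Rpl41 and Rplp0 with median and with TMM scaling (-0.23 to -0.18), Rpl41 and Rplp0 in edgeR, and Rpl14 and Rpsa besides those 3 in DESeq2. Rplp0 also passed without Ythdf1_KO replicate A (-0.32). Dppa5a, of both pluripotency lists, passed in edgeR and in DESeq2 (-0.25 in each, adjusted p = 0.0433 and 0.0286). Ythdf2, with a difference of -0.38 ± 0.32, Ythdf3, with -0.27 ± 0.42, and Ythdf1, with 0.54 ± 0.33, did not pass either (95% intervals of -1.02 to 0.26, -1.10 to 0.56 and -0.11 to 1.19). Armc1 had the largest loss in Ythdf1_KO relative to WT among the named genes (-1.95 ± 0.47) and missed the threshold (adjusted p = 0.18), though it passed with a pseudocount of 0.25 and with median or TMM scaling (adjusted p = 0.00419, 0.0341 and 0.0311).

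The other knockouts place these values. Against Ythdf2_KO, 40 genes had more left in Ythdf1_KO at 8 h (0.442%) and none had less, and against Ythdf3_KO 26 had more (0.288%) and 1 had less (0.0111%, in all 0.299%). The largest against Ythdf2_KO were Tmem38b, Pvr, the poliovirus receptor homologue, Cbx3, a heterochromatin protein, Cdkn1a, the p53-induced cell cycle inhibitor, and Myo1c, a membrane myosin (2.00 to 1.06). Pvr changed by 0.23 ± 0.35 in Ythdf1_KO, and its difference was 1.94. Against Ythdf3_KO they were Tex261, H2ac24, H2ac23, Cldn4, a tight junction protein, and Slc2a1 (1.03 to 0.87), with Armc1 lower (-2.02). The histone genes H2ac24 and H2ac23 had almost the same value in every library, so reads of these near copies cannot be told apart. The direction of the count against Ythdf2_KO turned with the processing. Against Ythdf2_KO, 3 genes had more and 9 less left in Ythdf1_KO with median or with TMM scaling, and 13 more and 27 less in edgeR. In DESeq2 9 had more and 26 less, with no adjusted p for 8239 of the 9042 genes. Against Ythdf3_KO few genes were left: 2 had more and 1 less with median scaling, 2 more and 2 less with TMM, and 2 more and 3 less in edgeR. In DESeq2 9 had more and 3 less, with no adjusted p for 8064 of the 9042 genes. There the direction turned only in edgeR. The named calls rest on few samples too: of the 5 genes against Ythdf2_KO, 4 lost their call without its replicate A and all 5 without its replicate B, and of the 6 against Ythdf3_KO all lost it without its replicate A, Slc2a1 included (0.72, adjusted p = 0.0711), and 5 without its replicate B.

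With all libraries, Slc2a1, Hspa8, Ubb and Ubb-ps passed against Ythdf2_KO and Ythdf3_KO as well as against WT, though Slc2a1 lost the call against Ythdf3_KO without replicate A of that genotype, and these comparisons share the Ythdf1_KO libraries and are not independent. The level left at 8 h was 49.7% to 65.3% of the 0 h mean for Slc2a1 in Ythdf1_KO libraries, 26.6% to 32.5% in Ythdf2_KO, 27.0% to 36.5% in Ythdf3_KO, 59.0% to 79.0% in Triple_KO and 26.9% to 35.9% in WT. For Hspa8 it was 35.7% to 40.2% in Ythdf1_KO, 26.4% to 31.8% in Ythdf2_KO, 28.8% to 32.8% in Ythdf3_KO, 54.8% to 62.1% in Triple_KO and 27.1% to 30.8% in WT. At 8 h the Ythdf1_KO libraries of both genes stood above those of the other single knockouts and of WT, and in Hspa8 below all Triple_KO libraries. At 4 h this order did not hold for Slc2a1, with 55.5% to 68.2% left in Ythdf1_KO and 72.5% to 75.7% in Ythdf2_KO. Nor did it hold for Ubb at 4 h (47.6% to 54.0% in Ythdf1_KO, 62.4% to 64.9% in Ythdf2_KO). It did hold for Hspa8 at 4 h, with 63.0% to 64.9% in Ythdf1_KO and at most 60.5% in the other single knockouts and WT.

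Against Triple_KO, which also lacks Ythdf1, the pattern turned: 484 genes had less left in Ythdf1_KO (5.35%) and 4 had more (0.0442%, in all 5.40%), with a median decay difference of -0.34. Slc2a1 did not differ by the test (-0.30 ± 0.14, adjusted p = 0.22), while Hspa8 (-0.58 ± 0.08, adjusted p = 5.8e-08) and Ubb (-0.81 ± 0.12, adjusted p = 6.8e-07) had less left in Ythdf1_KO. Like the median of -0.34, these values are relative to the library total, and those under other scalings are not given here. Of the 8 genes named next, 5 lost their call without Triple_KO replicate A, and 5 without replicate B. The largest losses relative to Triple_KO were of Armc1, Kif3b, a kinesin motor, Commd5, Swap70, a Rac-signalling protein, and Sac3d1 (-2.74 to -2.08). Tbpl1, a TBP-like factor, Tmem38b and Tagln had more left (2.15, 1.94 and 0.65). Most of the count depended on scaling, with 28 lower and 16 higher genes when libraries were scaled to the median gene, and at 8 h the listed genes held 33.4 ± 1.06% of a Ythdf1_KO library and 41.1 ± 1.48% of a Triple_KO library.

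**Figure D4:**
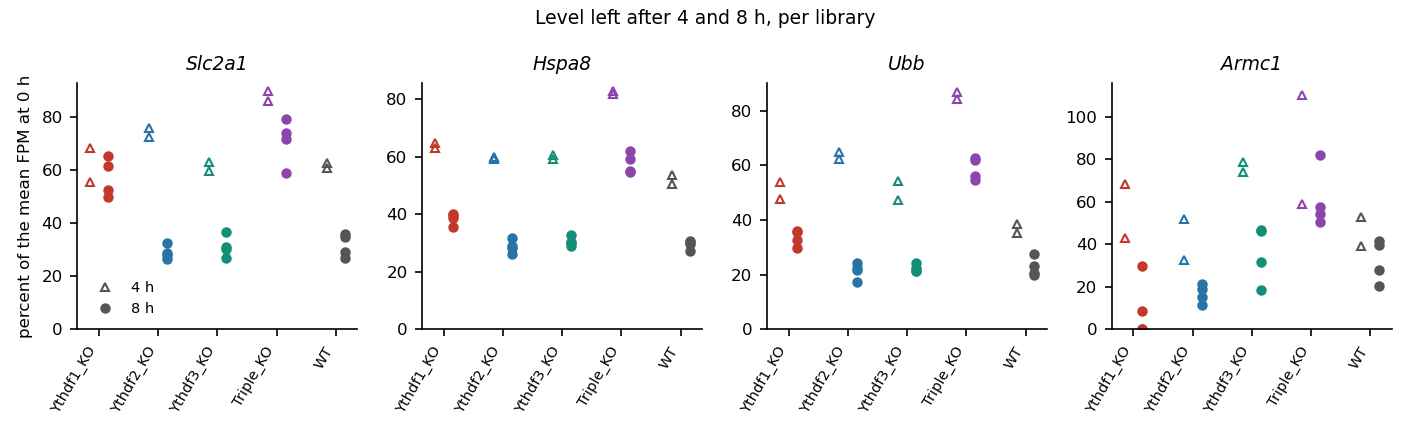
FPM at 4 h (open triangles) and 8 h (filled circles) as a percentage of the mean at 0 h of the same genotype (y axis), a point per library, for Slc2a1, Hspa8, Ubb and Armc1 in the 5 genotypes (x axis). In Slc2a1 the 8 h libraries of Ythdf1_KO lie at 49.7% to 65.3%, those of WT at 26.9% to 35.9%.

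Finally, the structure of the transcripts was set beside their decay. The longer the 3′ untranslated region, the larger the median fall over 8 h in Ythdf1_KO, with -0.51 in the shortest quintile of genes and -1.02 in the longest. The median was -1.30 in the quintile of lowest exon junction density and -0.49 in that of the highest. Coding length acted like the 3′ region, with -0.43 in the shortest quintile and -0.97 in the longest. Where a transcript had a long internal exon (400 bases or more) the median was -1.21, and -0.67 otherwise. With TMM scaling the order of the quintiles was the same, but some medians turned above 0. These were the quintiles of shortest 3′ region (0.12), highest junction density (0.14) and shortest coding length (0.21).

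Of the motifs, the Pumilio motif went with the largest difference. The median change was -1.20 for the 1981 genes that hold it and -0.65 for the 6773 that do not, and it was present in 28.9% of the genes that fell and in 4 of the 113 that rose and have an annotated region (3.54%). Long regions hold more motifs by chance. Among genes in the shortest quintile of 3′ length the medians were -1.14 with the motif (99 genes) and -0.48 without, and in the longest quintile -1.22 with and -0.85 without. Sox2, Mycn and Chd2 are examples whose sites are printed above, but Tmem38b, which rose most, holds both motifs, and Slc2a1 holds the Pumilio motif.

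The AU-rich nonamer went with a smaller difference, with medians of -1.05 for 540 genes with it and -0.75 for those without, and in the longest quintile -1.14 with the nonamer, where all genes had -1.02. GGACT, a common sequence of m6A sites, within 200 bases of the stop codon made almost none (-0.80 with, -0.75 without). In WT the medians were -1.22 with the Pumilio motif and -0.70 without, and -1.06 with the nonamer and -0.80 without. The decay difference between Ythdf1_KO and WT had a median between -0.03 and 0.03 in each class with or without these motifs or a long internal exon. Genes share sequence features and expression levels, so these medians are descriptions without a test.

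**Figure D5:**
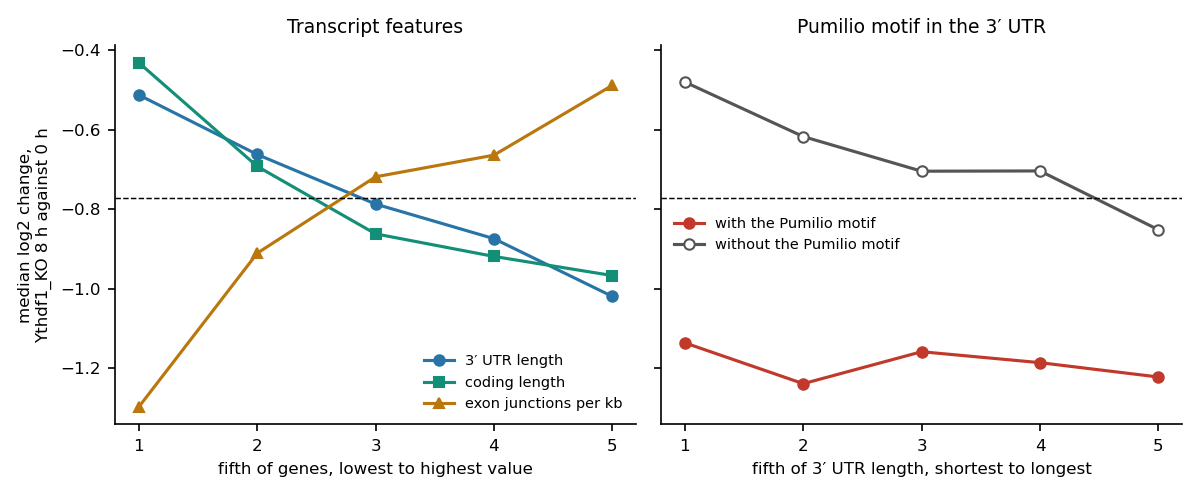
Median log2 change from 0 h to 8 h in Ythdf1_KO (y axis), on the left by quintiles of genes ranked on 3′ untranslated length, coding length or exon junctions per kb (x axis, lowest to highest), on the right by quintiles of 3′ length for genes with (filled red) and without (open grey) the Pumilio motif. The dashed line is the median of all genes with an annotated transcript (-0.77), and genes with the motif lie at -1.14 to -1.24 in every quintile.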

How the data were processed

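Poly(A) RNA was sequenced from the 3′ end, and the deposited values are FPM (RPM), fragments of a gene scaled to a fixed library total, computed by the authors; per the submitters' processing notes, CASAVA 1.8.2 and Bowtie2 were used with build mm10. The annotation, the treatment of reads with several matches and the use of strand are not given in the sources used here. Low values were whole multiples of 1 read in each library (100% within 0.1 read), so reads were recovered for the count tests. Totals ran from 796921 to 2341410 reads, and intervals cover counting error only.

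Transcripts were joined to 19198 genes, duplicates of a replicate were averaged, and the 9042 genes that reached 5 FPM in 2 or more of the 30 replicate means were kept. The test was limma 3.58 in R 4.3 on log2(FPM + 1), with all 5 genotypes in the fit, a trend of the prior variance with level, and adjustment after Benjamini-Hochberg at 0.05. A fold change on this scale understates the change of low genes. The decay difference is the interaction of genotype and time. Alternatives were pseudocounts of 0.25 and 5, no filter, median or TMM scaling, edgeR 4.0 and DESeq2 1.42 on recovered reads, a replicate block, only the groups compared, and each replicate left out. Leaving out the shallowest library and thinning to 796921 reads were chosen after seeing the data. The fit was also run on simulated counts, drawn independently for each library, with effects planted only in well expressed genes. That run does not cover weakly expressed genes or spread shared within a replicate. Where a group kept 1 replicate, that replicate was assumed to vary like the other groups.

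The genes named are the 10 largest changes in each direction at 8 h, the 5 largest for each other comparison, among genes past the threshold with the same sign in replicates A and B and a mean of at least 10 FPM in a group compared. To these come the 3 Ythdf genes and, in each list, the 3 with the smallest adjusted p at 8 h and the 1 with the smallest in the other direction. Pseudogenes and models with only a systematic identifier were left unnamed. Ubb-ps, Pou5f1, Nanog, Col3a1, Rmrp, Rps20, Rpl41, Rpl14, Rpsa and the further m6A genes were added after their values were seen. Members and lists were chosen with earlier results of these data known. Sequences are from GENCODE M21 on GRCm38, and motifs were searched on the transcribed strand only.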

Additional observations from a re-analysis of the deposited data

Results flagged for a closer look

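In 4 genes a single 8 h library of Ythdf1_KO stood apart from the other 3 by Dixon's criterion. Tmem38b had 67.8 FPM in it, with 47.0 FPM in the next, Col1a2 24.0 FPM, with 16.2 FPM in the next, Chd2 3.04 FPM and Cbll1 2.09 FPM, with 0 in the others. Where the others hold 0, any read meets the criterion, so Chd2 and Cbll1 were flagged by low counts alone. In all, 56 groups of 4 libraries were examined, and chance sets apart about 1 in 20.

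The decay difference at 8 h passed the limma test between Ythdf1_KO and WT for Slc2a1 (0.85), Ubb (0.56), Hspa8 (0.38) and Ubb-ps (0.45), all with more left in Ythdf1_KO.

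Between Ythdf1_KO and Ythdf2_KO the named genes that passed were Tmem38b (2.00), Pvr (1.94), Cbx3 (1.13), Cdkn1a (1.07) and Myo1c (1.06). Between Ythdf1_KO and Ythdf3_KO they were Tex261 (1.03), H2ac24 (0.98), H2ac23 (0.96), Cldn4 (0.89), Slc2a1 (0.87) and, with less left in Ythdf1_KO, Armc1 (-2.02). Between Ythdf1_KO and Triple_KO they were Tbpl1 (2.15), Tmem38b (1.94) and Tagln (0.65), and with less left in Ythdf1_KO Armc1 (-2.74), Kif3b (-2.47), Commd5 (-2.23), Swap70 (-2.16) and Sac3d1 (-2.08). All these comparisons share the Ythdf1_KO libraries.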

How the results depend on the processing

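The count of 5058 genes changed over 8 h was 2962 with DESeq2, and 3332 to 3377 without replicate A or B of Ythdf1_KO. The 2480 changed at 4 h became 1180 to 1396 without a replicate. The 1957 between 4 h and 8 h became 462 with median scaling, 470 with TMM, 232 with edgeR, 229 with DESeq2, 923 with the groups compared only, 1092 with thinned libraries and 897 to 994 without a replicate.

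The 4 decay differences from WT became 10 with median scaling, 10 with TMM, 15 with edgeR, 21 with DESeq2, 1 with the groups compared only, 1 with thinned libraries and 0 to 3 without a replicate of either genotype. The 0 at 4 h became 4 with no filter and 0 to 1 without a replicate. The 40 against Ythdf2_KO became 15 with no filter, 12 with median or 12 with TMM scaling, 26 with the groups compared only, 11 thinned and 4 to 24 without a replicate. The 27 against Ythdf3_KO became 16 with no filter, 3 with median and 4 with TMM scaling, 5 with edgeR, 12 with DESeq2, 16 without the shallowest library, 17 thinned and 5 to 25 without a replicate. The 488 against Triple_KO became 302 with no filter, 44 with median and 42 with TMM scaling, 168 with edgeR, 79 with DESeq2, 859 with the groups compared only, 210 thinned and 132 to 338 without a replicate. DESeq2 gave no adjusted p for many genes, so its counts cover fewer genes than the others. These were 8589 of 9042 genes against WT, 8064 against Ythdf3_KO, 4207 against Triple_KO and 5434 for 8 h against 4 h. The cause of these shifts was not tested.

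The change in the share of the library in the listed genes was -11.2 to -9.64 percentage points without a replicate, where 2 against 2 libraries cannot reach an exact permutation p below 0.333. With median scaling, TMM, edgeR and DESeq2 the change over 8 h was above 0 for Rpl36al (0.072, 0.13, 0.17 and 0.16), Atp5a1 (0.36, 0.42, 0.45 and 0.45), Uqcrfs1 (0.072, 0.13, 0.15 and 0.14), Fn1 (0.18, 0.24, 0.27 and 0.26) and Lamc1 (0.13, 0.19, 0.24 and 0.23). It was above 0 with edgeR and DESeq2 for Slc2a3 (0.0065 and 0.00064) and Arg2 (0.088 and 0.081). The decay difference of Ythdf3 from WT ran from -0.61 to 0.072 without a replicate, above 0 without WT replicate A.

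The replicate block gave 5059 genes for the 8 h change. Deviations of replicates with the same letter correlated at -0.0104 to 0.0258. Counting noise at this depth can bring such a correlation near 0, so it cannot tell whether they share a culture. Over 157 genes and comparisons, 1825 results under alternatives kept direction and call, 220 lost the call and 25 reversed. Depth limits genes near 3 reads per group.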
